A study of Homo sapiens with 12 samples.

Results

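The genes described here make up the DNA replication and G1/S program: 51 gene symbols listed for origin licensing, origin firing, the replication fork, nucleotide supply and E2F control of the G1/S transition, looked up by Ensembl gene ID among the 63541 gene IDs of the deposited count table. Of the 51 symbols, 50 matched a gene ID and all 50 passed the filter on low counts, out of 21999 genes tested. E2F2 was not analysed here. No measured value entered the choice of symbols, but the list was drawn up with earlier results of these data known.

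RNA was measured in HEK293T cells, a derivative of human embryonic kidney cells that carries the SV40 large T antigen, a viral protein that binds the RB family. All 12 libraries came from cells transfected with an siRNA at 12.5 nM and collected after 48 h, in 4 groups of 3 replicates. The control group received a scramble siRNA, and the other 3 groups received si-snaR-A#1, si-snaR-A#2 or si-snaR-A#3, each designed to deplete snaR-A, a small RNA polymerase III transcript that codes for no protein. They are written siRNA #1, siRNA #2 and siRNA #3 from here on. The paper directed all 3 at 3'-proximal sequence of snaR-A. Their sequences overlap, so agreement among them is not agreement of independent target sites. The line is not described as a clone. The study calls its replicates biological and handled them on a single day, so the p-values measure the spread between such libraries and not between days. The comparisons ask which replication genes change in RNA abundance when snaR-A is targeted, and whether the 3 siRNAs change them alike.

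Library totals lay between 120.4 and 180.1 M estimated counts, and the lowest mean level of a member over the 12 libraries was 19.5 CPM (counts scaled to a common library size with TMM factors). The TMM factors differed by group, from 1.03 to 1.09 with siRNA #1, 0.956 to 0.973 with siRNA #2 and siRNA #3, and 1.01 to 1.03 with scramble. Their part in small changes of single genes was not tested beyond the other scalings named below. None of the gene IDs had a symbol starting with SNAR (0 of 63541), so the group labels were not checked by the targeted RNA. The epithelial markers KRT8, KRT18, EPCAM and CDH1 and the embryonic kidney genes SIX2, PAX2 and LHX1 were detected in all 12 libraries, while PAX8 did not exceed 0.0990 CPM. Of genes of the mature kidney, UMOD and AQP2 were at 0 in all 12 and NPHS1, SLC34A1 and SLC12A1 did not exceed 0.184 CPM. Of genes that mark other cell types, HBB was at 0 and PTPRC and PECAM1 did not exceed 0.116 CPM, but the collagen genes COL1A1 (13.0 to 26.97 CPM) and COL3A1 (5.84 to 10.8 CPM) and, at up to 0.335 CPM, DCN were detected in all 12. In bulk RNA, a change in the share of cells in S phase and a change in RNA per cell cannot be told apart.

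A cell copies its genome from origins that are licensed in G1. The origin recognition complex (ORC) with CDC6 and CDT1 loads the MCM2 to MCM7 ring, geminin (GMNN) binds CDT1 and blocks reloading, and CDC7 with cyclin E and CDK2 starts the ring as a helicase with CDC45 and GINS. RFC then loads the PCNA clamp for the polymerases, FEN1 and LIG1 finish the lagging strand, and ribonucleotide reductase (RRM1, RRM2), TYMS and TK1 supply deoxynucleotides. E2F factors, held back by RB proteins, switch on many of these genes before S phase.

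Because E2F binding words are the sequence feature best known for this gene family, the 250 bases before each RefSeq start site (GRCh38.p14, first listed entry per gene) were searched on both strands for the word TTCCCGC, the word TTGGCGC, the word TTCGCGC or the word TTGCCGC. An entry was present for 45 of the 51 symbols. At least 1 of the words was found in 22 of the 45 (48.9%), against 11.02% of all 27305 promoters and 14.5% of 15843 promoters of protein-coding genes. Symbols were listed in part for E2F control, so the members were not chosen independently of these words. The shorter word CCAAT was in 55.6% of member promoters and 33.0% of all promoters, and the words TTTGAA and TTCGAA, which mark many mitotic genes, were in 4.44% and 14.6%. Windows around the word are shown for genes whose RNA differed between groups and for MCM6, whose RNA was not called in any comparison. Each is written in the gene's direction with the word in capitals, and GCGGGAA is TTCCCGC read on the other strand.
CDT1, chr16:88803743-88803771, plus strand: ccagggcgcccGCGGGAAatttggcggga
MCM3, chr6:52284748-52284776, minus strand: aacctttggtgGCGGGAAgagttcggaag
E2F1, chr20:33686387-33686415, minus strand: gcaaaaaggatTTGGCGCgtaaaagtggc
UHRF1, chr19:4909386-4909414, plus strand: ctctttctcgcTTCCCGCcactgcgtcgg
PRIM1, chr12:56752330-56752358, minus strand: cggccgtgctgTTCCCGCcaattcctgtg
MCM6, chr2:135876515-135876543, minus strand: attggtcaggtTTGGCGCgaaatctccag
Genes with a word moved in both directions with siRNA #1 and siRNA #3. Of 21 measured members with a word, 5 were called higher and 7 lower with siRNA #1, 10 higher and 0 lower with siRNA #2, and 10 higher and 2 lower with siRNA #3. Among 23 members whose window held none, the counts were 6 higher and 11 lower, 10 higher and 0 lower, and 8 higher and 2 lower. Over all genes tested, 21.9% were higher and 23.3% lower with siRNA #1, 13.7% and 12.1% with siRNA #2, and 16.5% and 13% with siRNA #3. RFC5, RFC2, RRM2, TIPIN, CDC45, GINS1 and CDC6, whose values are given below, had none of the 4 E2F words in the searched window, which says nothing of E2F binding elsewhere. For 4 of the 23 members (GMNN, RRM2, TIPIN and TK1) a word did lie within 250 bases before another listed start site, among them TTGGCGC at 65 to 59 bases before one of TIPIN and GCGCCAA at 192 to 186 bases before one of RRM2.

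Against scramble, most of the replication genes passed the test with siRNA #1, and they split in both directions. With edgeR's quasi-likelihood test and an adjusted p under 0.05, 35 of 50 were called (12 higher, 23 lower), beside 45.2% of all genes tested. With siRNA #2, 22 of 50 were called, all of them higher, beside 25.8% of all genes (13.7% higher and 12.1% lower). With siRNA #3, 24 of 50 were called (20 higher, 4 lower), beside 29.4% of all genes (16.5% higher and 13% lower). In the mean of the 3 siRNAs, 20 of 50 were called (14 higher, 6 lower), beside 32.2% of all genes (15.6% higher and 16.6% lower). That last count was 13 without scramble replicate 1 and 12 without scramble replicate 2.

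Calls were more frequent among highly expressed genes. Among the 8275 genes with a mean level at or above that of the lowest member, a limit set after the data were seen, 64.3% were called with siRNA #1, 41.3% with siRNA #2, 48.5% with siRNA #3 and 50.1% in the mean. The members' own shares were 70%, 44%, 48% and 40%, so the number of calls alone does not set them apart. By direction, 29% of these highly expressed genes were higher and 12.3% lower with siRNA #2, against 44% and 0 of 50 for the members. With siRNA #1, 30.1% were higher and 34.2% lower, against 24% and 46% of members. With siRNA #3, 35.1% were higher and 13.3% lower, against 40% and 8% of members, and in the mean 30.1% and 20.1%, against 28% and 12%.

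The median log2 fold change of the members was -0.10 with siRNA #1, 0.12 with siRNA #2, 0.10 with siRNA #3 and 0.03 in the mean, while the median over all genes was -0.02, -0.03, -0.03 and -0.04. Over the 8275 highly expressed genes it was -0.02, 0.05, 0.08 and 0.02, so with siRNA #3 and in the mean the members lay close to genes of like level. Summed over the 50 genes, the level was 5928 to 6129 CPM in scramble, 5565 to 5986 with siRNA #1, 6651 to 6721 with siRNA #2 and 6314 to 6525 with siRNA #3. The siRNA #2 and siRNA #3 libraries all lay above the scramble libraries, and the siRNA #1 libraries overlapped them. The split of calls with siRNA #3 depended on the scaling: 83.3% of calls were higher here, 95.2% with RLE scaling and 68.2% with upper quartile scaling. For siRNA #2 the same share was 100%, 100% and 89.5%.

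**Figure D1:**
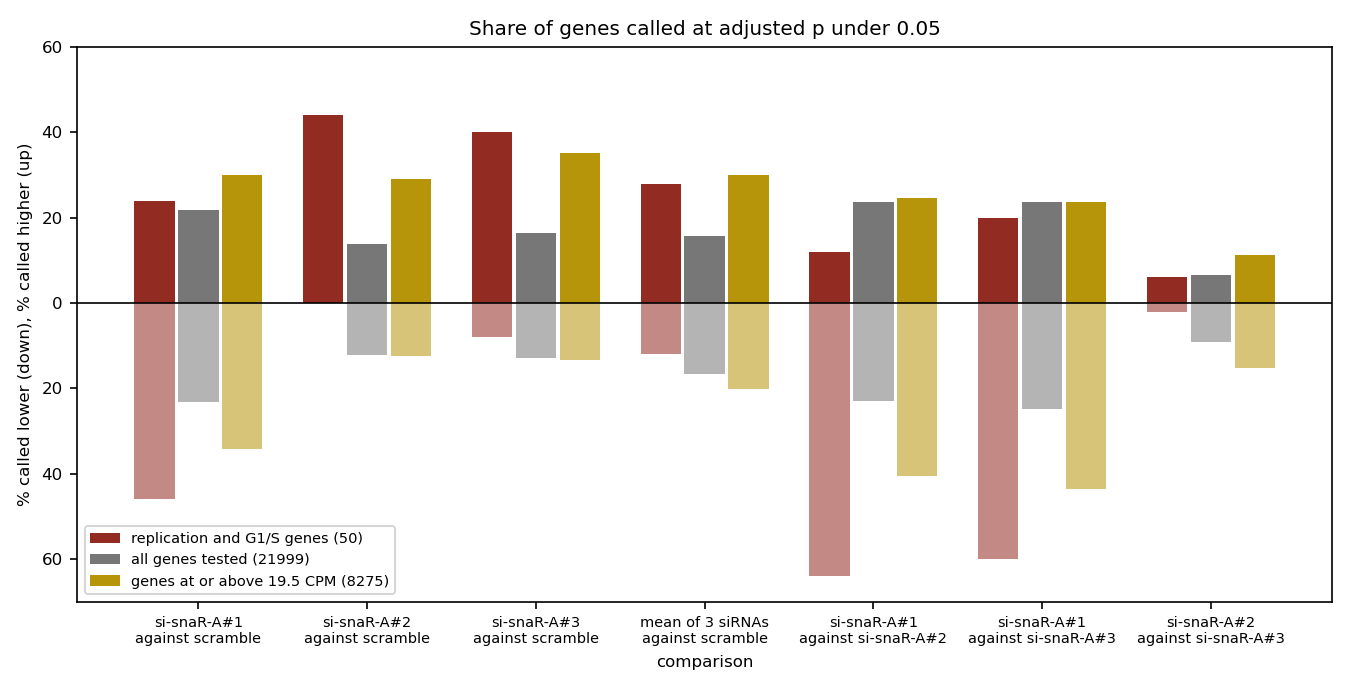
Share of genes called higher (bars up) and lower (pale bars down) at an edgeR adjusted p under 0.05 in each of 7 comparisons, in percent, for the 50 replication and G1/S genes, all 21999 genes tested and the 8275 genes at or above the mean CPM of the lowest member. The members stand at 44% higher and 0% lower with siRNA #2, and at 24% higher and 46% lower with siRNA #1.

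Each log2 fold change below is given ± its SE with the FDR, the Benjamini-Hochberg adjusted p of edgeR's test across the 21999 genes. The median coefficient of variation of a member within a group was between 2.60% and 4.83%. Of the 50 genes, 1 changed by more than 1 on the log2 scale, RFC5 with siRNA #1. The calls split into 7 genes not called with any single siRNA, 16 called with 1, 16 with 2 and 11 with all 3. In percent these are 14%, 32%, 32% and 22%, beside 40.2%, 30.4%, 18.3% and 11.1% of all genes and 16.7%, 33.4%, 28.9% and 20.9% of the highly expressed ones.

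**Figure D2:**
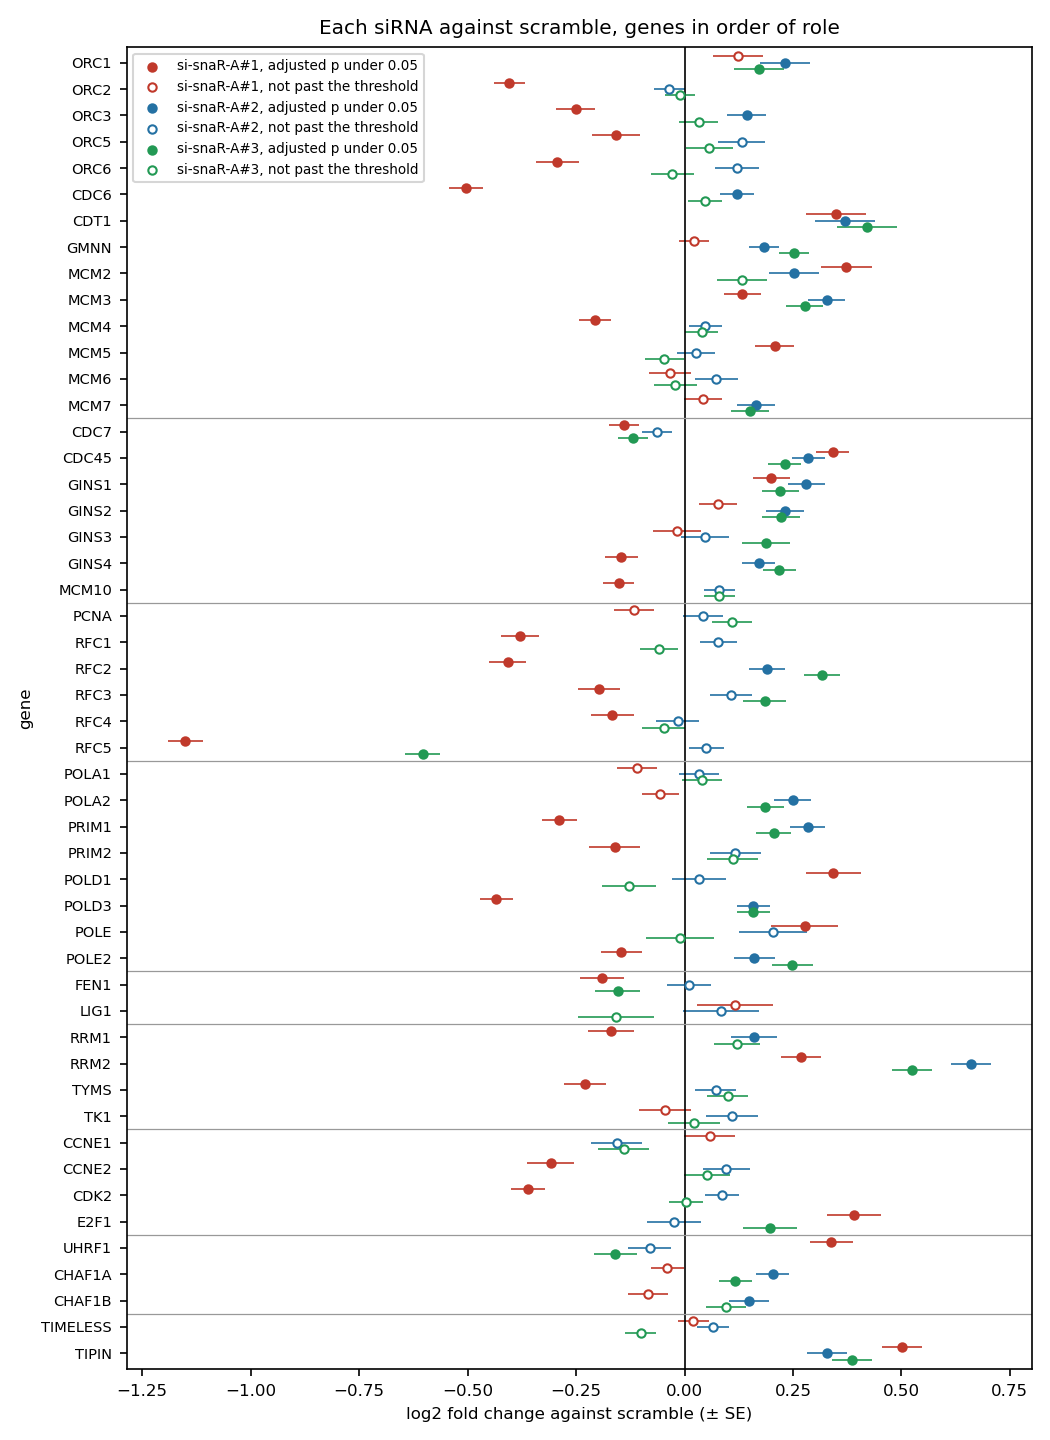
Log2 fold change against scramble (horizontal axis, ± SE) of the 50 genes with each siRNA, listed by role from licensing at the top to fork protection at the bottom, filled where the edgeR adjusted p was under 0.05. RFC5 stands apart at -1.15 with siRNA #1 and -0.60 with siRNA #3, and CDT1, MCM3, CDC45, GINS1, RRM2 and TIPIN have 3 filled points to the right of 0.

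Origin licensing genes did not move together. Of 14 measured, 10 were called with siRNA #1 (4 higher, 6 lower), 8 with siRNA #2 (all higher) and 5 with siRNA #3 (all higher). These are 71.4%, 57.1% and 35.7%, beside 64.3%, 41.3% and 48.5% of the highly expressed genes, the shares against which the counts of the other roles can be read as well. The loading factors CDT1 and CDC6, which act at the same step, moved in opposite directions with siRNA #1. CDT1 (chr16:88803789-88809258) measured 99.1, 101 and 115 CPM in the scramble libraries, 139.5, 138 and 125 with siRNA #1, 133, 142 and 133 with siRNA #2 and 128, 147 and 148 with siRNA #3. Every siRNA library lay above every scramble library, with log2 fold changes of 0.35 ± 0.07 (edgeR FDR = 0.00112), 0.37 ± 0.07 (edgeR FDR = 0.00164) and 0.42 ± 0.07 (edgeR FDR = 0.00055) for siRNA #1, siRNA #2 and siRNA #3. CDC6 (chr17:40287879-40304657), the ATPase that works with ORC, measured 128, 128 and 129.8 CPM in the scramble libraries, 94, 91.2 and 86.6 with siRNA #1, 140.2, 136 and 143 with siRNA #2 and 128, 134 and 135 with siRNA #3. Its siRNA #1 libraries were all below the other 9, at -0.50 ± 0.04 (edgeR FDR = 4.5e-07) against scramble. The rise of CDC6 with siRNA #2 was 0.12 ± 0.04 (edgeR FDR = 0.0379) and was not called in 8 of 20 other settings, among them upper quartile scaling, no filter on low counts, and fits without siRNA #2 replicate 1 or 3, siRNA #3 replicate 2 or scramble replicate 1 or 2, with FDR between 0.056 and 0.14. With siRNA #3 it was 0.05 ± 0.04 (edgeR FDR = 0.41).

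The 5 measured ORC subunits also split. ORC2, ORC3, ORC5 and ORC6 were called lower with siRNA #1, between -0.40 and -0.16 on the log2 scale, and ORC1 was called higher with siRNA #2 and siRNA #3, at 0.23 and 0.17. ORC3 was also called higher with siRNA #2, with means of 89.6 CPM there and 81.1 CPM in scramble. Geminin (GMNN), the inhibitor of CDT1, measured 86.8, 89.1 and 90.4 CPM in the scramble libraries, 92, 91.3 and 87.2 with siRNA #1, 101, 98.6 and 102 with siRNA #2 and 105, 105 and 108 with siRNA #3. It rose with siRNA #2 (0.18 ± 0.03, edgeR FDR = 0.00178) and siRNA #3 (0.25 ± 0.03, edgeR FDR = 0.00015), while its siRNA #1 libraries overlapped scramble.

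The MCM2 to MCM7 genes encode the 6 subunits of a ring that holds 1 copy of each, yet their RNAs did not move together. MCM2 measured 213, 226 and 239.9 CPM in the scramble libraries, 309.9, 301 and 268 with siRNA #1, 269, 278 and 261 with siRNA #2 and 239, 251 and 254 with siRNA #3. MCM2 rose with siRNA #1 (0.37 ± 0.06, edgeR FDR = 0.00017) and siRNA #2 (0.25 ± 0.06, edgeR FDR = 0.00634) and was 0.13 ± 0.06 (edgeR FDR = 0.109) with siRNA #3. MCM3 (chr6:52264014-52284881) measured 288, 288 and 299 CPM in the scramble libraries, 332, 328 and 299.7 with siRNA #1, 366, 369 and 364 with siRNA #2 and 349, 348 and 363 with siRNA #3. It was called higher with all 3, at 0.13 ± 0.04 (edgeR FDR = 0.0208), 0.33 ± 0.04 (edgeR FDR = 0.0001) and 0.28 ± 0.04 (edgeR FDR = 0.00033), but the call with siRNA #1 was lost without the filter on low counts or without siRNA #1 replicate 1 or 2 or scramble replicate 1 or 2, with FDR between 0.067 and 0.097.

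MCM4 went the other way with siRNA #1. It measured 532, 543 and 547 CPM in the scramble libraries, 484, 476 and 446 with siRNA #1, 559.7, 564 and 553 with siRNA #2 and 561, 551 and 555 with siRNA #3. Its fall was -0.21 ± 0.04 (edgeR FDR = 0.00058), with no call for the other siRNAs and values of 0.05 ± 0.04 (edgeR FDR = 0.394) and 0.04 ± 0.04 (edgeR FDR = 0.47). MCM5 measured 103, 105 and 113 CPM in the scramble libraries, 127, 122 and 121 with siRNA #1, 112, 109 and 105 with siRNA #2 and 99.7, 104 and 107 with siRNA #3 and rose with siRNA #1 alone among the 3 comparisons (0.21 ± 0.04, edgeR FDR = 0.00187). MCM6 was 243, 261 and 266 CPM in the scramble libraries, 264, 255 and 232 with siRNA #1, 270.4, 272 and 267 with siRNA #2 and 250.5, 252 and 256 with siRNA #3, with no call in any of the 7 comparisons. It was called between siRNA #1 and siRNA #2 with edgeR's exact test or without siRNA #1 replicate 1 (FDR = 0.040 and 0.036), and between siRNA #2 and siRNA #3 when only those groups were fitted (0.036).

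MCM7 was 353, 355 and 378 CPM in the scramble libraries, 389, 376 and 355 with siRNA #1, 409.6, 406 and 402 with siRNA #2 and 389.7, 402 and 415 with siRNA #3. The rises with siRNA #2 (0.16 ± 0.04, edgeR FDR = 0.0146) and siRNA #3 (0.15 ± 0.04, edgeR FDR = 0.0198) were near the threshold. The first was lost without siRNA #2 replicate 1 or scramble replicate 1 or 2 (FDR 0.053 to 0.061), and the second with upper quartile scaling, without the filter, or without siRNA #3 replicate 2 or 3 or scramble replicate 1 or 2 (0.052 to 0.078). So in the same siRNA #1 libraries MCM2, MCM3 and MCM5 were called higher, MCM4 lower, and MCM6 and MCM7 were not called.

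Per kilobase of the canonical transcript, a rough scale for levels of different genes, the 6 RNAs were also unequal in scramble cells. The isoforms expressed may differ from the canonical transcript in length, and the counts may already have been rescaled by transcript length. How far this alters the order of genes was not tested. The levels were 147 ± 5.70 CPM per kb for MCM7, 133 ± 1.89 for MCM4, 95.1 ± 2.13 for MCM3, 68.3 ± 3.24 for MCM6, 65.8 ± 3.96 for MCM2 and 30.9 ± 1.46 for MCM5 (SD, n = 3 each). MCM6 and MCM2 were within their spread, and every other neighbour in this order differed by more than the SDs. Among all 50 genes the highest level per kb was that of PCNA, 163 ± 6.55, and the lowest were those of CCNE1, 10.4 ± 0.251, and CCNE2, 9.59 ± 0.205.

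**Figure D3:**
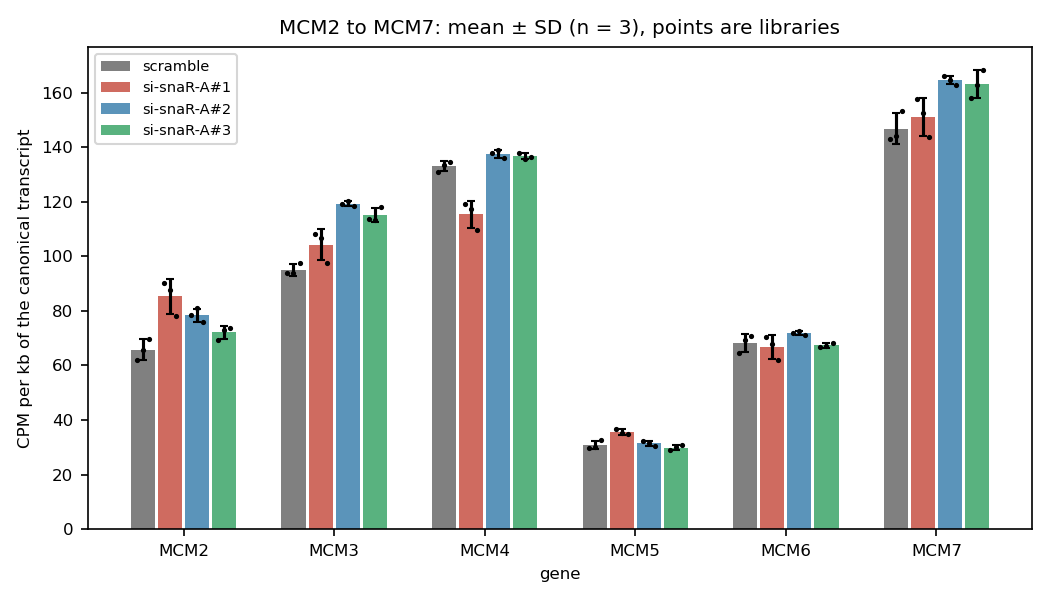
CPM per kb of canonical transcript for MCM2 to MCM7 in the 4 groups, with bars for the mean, error bars for the SD (n = 3) and points for libraries. In scramble cells MCM7 stands at 147 and MCM5 at 30.9, and with siRNA #1 the MCM4 libraries are below scramble while MCM2 and MCM5 are above.

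Among the 7 origin firing genes, CDC45 and GINS1 rose with every siRNA. The whole group had 5 calls with siRNA #1 (2 higher, 3 lower), 4 with siRNA #2 (all higher) and 6 with siRNA #3 (5 higher, 1 lower), which is 71.4%, 57.1% and 85.7% of the 7. CDC45 (chr22:19479457-19520612), which joins the MCM ring to form the helicase, measured 81.1, 79.4 and 81.6 CPM in the scramble libraries, 103, 103 and 101 with siRNA #1, 98.4, 100.2 and 96.3 with siRNA #2 and 89.7, 95.6 and 98.7 with siRNA #3. No siRNA library reached down to the highest scramble library, and the log2 fold changes were 0.34 ± 0.04 (edgeR FDR = 1e-05), 0.29 ± 0.04 (edgeR FDR = 0.00014) and 0.23 ± 0.04 (edgeR FDR = 0.00058). GINS1 (chr20:25391008-25452700), a subunit of the GINS part of the helicase, measured 78.4, 75.8 and 78.1 CPM in the scramble libraries, 91.4, 90 and 85.5 with siRNA #1, 91.9, 92.4 and 98 with siRNA #2 and 94.8, 87 and 89 with siRNA #3. It too was above scramble in all 9 libraries, by 0.20 ± 0.04 (edgeR FDR = 0.00194), 0.28 ± 0.04 (edgeR FDR = 0.00038) and 0.22 ± 0.04 (edgeR FDR = 0.00187). GINS4, another subunit of the same complex, was called lower with siRNA #1 and higher with the other 2. CDC7, the kinase that starts firing, was called lower with siRNA #1 and siRNA #3.

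The largest change of any member was in the clamp loader. RFC5 (chr12:118013588-118033130), 1 of the 5 RFC subunits that open PCNA around DNA, measured 119, 121 and 125 CPM in the scramble libraries, 56, 56.5 and 52.2 with siRNA #1, 125, 129 and 124 with siRNA #2 and 77.9, 80.9 and 81.8 with siRNA #3. With siRNA #1 all 3 libraries were under every other library, at a log2 fold change of -1.15 ± 0.04 (edgeR FDR = 1.1e-09). With siRNA #3 they were under scramble and above siRNA #1, at -0.60 ± 0.04 (edgeR FDR = 4.6e-07). The siRNA #2 libraries overlapped scramble (0.05 ± 0.04, edgeR FDR = 0.41). Over 20 other settings the change stayed between -1.17 and -1.12 with siRNA #1 and between -0.66 and -0.58 with siRNA #3. Exons of WSB2 on the other strand overlap 5.72% of the exonic bases of RFC5, and mean WSB2 levels were 64.3, 43.9, 31.2 and 46.3 CPM in scramble, siRNA #1, siRNA #2 and siRNA #3. Whether reads were shared between these genes was not tested.

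The other clamp loader genes fell with siRNA #1 as well. All of RFC1 to RFC5 were called lower, between -1.15 and -0.17, beside 34.2% of the highly expressed genes. RFC2 (chr7:74231499-74254458) measured 79.1, 78.7 and 82.3 CPM in the scramble libraries, 61.3, 62.6 and 57 with siRNA #1, 90.1, 93.9 and 89.8 with siRNA #2 and 97.8, 98.4 and 103 with siRNA #3. This gene fell with siRNA #1 (-0.41 ± 0.04, edgeR FDR = 4.9e-06) and rose with siRNA #2 (0.19 ± 0.04, edgeR FDR = 0.00465) and siRNA #3 (0.32 ± 0.04, edgeR FDR = 0.0001), with no overlap between any of these groups and scramble. PCNA, the clamp itself, measured 200.02, 208 and 217 CPM in the scramble libraries, 199.81, 197 and 179.6 with siRNA #1, 216, 212 and 216 with siRNA #2 and 217, 225 and 231 with siRNA #3. Its log2 fold changes, -0.12 ± 0.05 (edgeR FDR = 0.0572), 0.04 ± 0.05 (edgeR FDR = 0.557) and 0.11 ± 0.05 (edgeR FDR = 0.0944), were not called. The first was called lower with upper quartile scaling (FDR = 0.036) and without siRNA #1 replicate 1 (0.038) or scramble replicate 1 (0.037), and the third was called higher with DESeq2 (0.047) and without siRNA #1 replicate 3 (0.042).

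**Figure D4:**
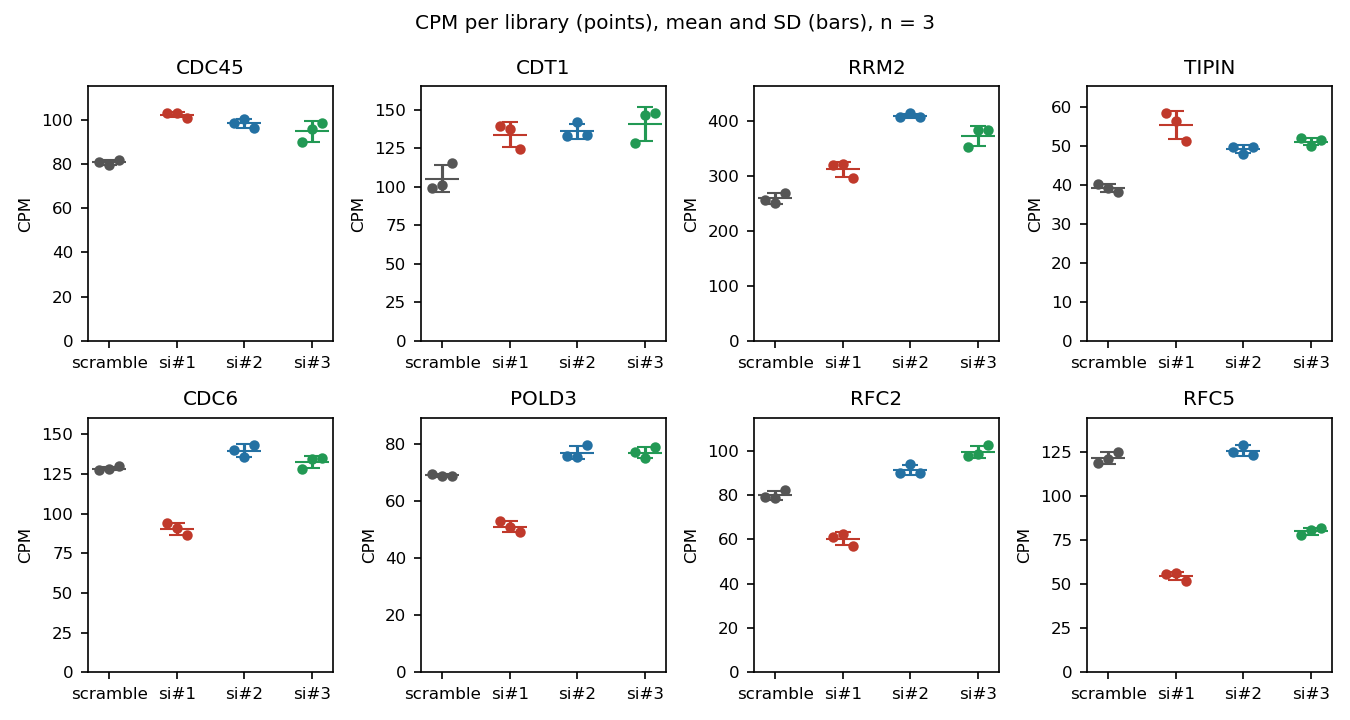
CPM in each library (points) with the group mean and SD (n = 3) for 8 genes, on axes that start at 0. CDC45, CDT1, RRM2 and TIPIN are higher than scramble in all 9 siRNA libraries, CDC6, POLD3 and RFC2 are lowest with siRNA #1, and RFC5 is lowest with siRNA #1 and second lowest with siRNA #3.

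Polymerase and primase genes were called in both directions with siRNA #1. Of 8, the test called 6 with siRNA #1 (2 higher, 4 lower), 4 with siRNA #2 and 4 with siRNA #3 (all higher), which is 75%, 50% and 50%, near the 64.3%, 41.3% and 48.5% of the highly expressed genes. POLD3 (chr11:74493851-74669117), an accessory subunit of polymerase delta, measured 69.3, 68.6 and 68.6 CPM in the scramble libraries, 53, 51 and 49 with siRNA #1, 75.5, 75.4 and 79.5 with siRNA #2 and 76.9, 74.8 and 78.9 with siRNA #3. It was lower in all 3 siRNA #1 libraries (-0.43 ± 0.04, edgeR FDR = 1.5e-06) and higher in all libraries of the others at 0.16 ± 0.04 (edgeR FDR = 0.0089) and 0.16 ± 0.04 (edgeR FDR = 0.00759). PRIM1 (chr12:56730438-56752374), the catalytic primase subunit, measured 68.4, 69.8 and 66.8 CPM in the scramble libraries, 58.1, 56.3 and 53.4 with siRNA #1, 81.2, 82.7 and 85.8 with siRNA #2 and 81.2, 77.1 and 78 with siRNA #3. The same order held for it, with -0.29 ± 0.04 (edgeR FDR = 6.8e-05), 0.28 ± 0.04 (edgeR FDR = 0.00021) and 0.21 ± 0.04 (edgeR FDR = 0.0019). The catalytic subunit POLD1 and the catalytic subunit POLE were the 2 called higher with siRNA #1.

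On the lagging strand, FEN1, the flap nuclease, measured 133, 136 and 142 CPM in the scramble libraries, 131, 118 and 112 with siRNA #1, 142, 137 and 135 with siRNA #2 and 122, 122 and 126 with siRNA #3. It was lower with siRNA #1 (-0.19 ± 0.05, edgeR FDR = 0.00893) and with siRNA #3 (-0.15 ± 0.05, edgeR FDR = 0.0405). The first call was lost when only the 2 groups compared were fitted (FDR = 0.057). The second was not called in 13 of 20 other settings, among them RLE scaling and the fit without any 1 library other than siRNA #1 replicate 1 or 3 (FDR between 0.051 and 0.15). LIG1, the ligase, was not called against scramble with any siRNA.

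RRM2 had the largest rise of all members with siRNA #2 and siRNA #3. RRM2 (chr2:10120698-10211725), the regulated small subunit of ribonucleotide reductase, measured 256, 251 and 269.7 CPM in the scramble libraries, 319, 321 and 296 with siRNA #1, 408, 414 and 407 with siRNA #2 and 352, 382 and 383 with siRNA #3. None of the 3 siRNA groups overlapped scramble, and the log2 fold changes were 0.27 ± 0.05 (edgeR FDR = 0.00037), 0.66 ± 0.05 (edgeR FDR = 7.6e-07) and 0.52 ± 0.05 (edgeR FDR = 4e-06). The pseudogenes named after members had mean levels of 0.123 CPM or less. RRM1, the large subunit, was called lower with siRNA #1 and higher with siRNA #2. TYMS, which makes thymidylate, measured 97.9, 106 and 105 CPM in the scramble libraries, 88.1, 91.7 and 83.8 with siRNA #1, 106, 111 and 107 with siRNA #2 and 104, 113 and 113 with siRNA #3. It fell with siRNA #1 (-0.23 ± 0.05, edgeR FDR = 0.00167), although 39.9% of its exonic bases overlap ENOSF1 on the other strand, and use of strand in the counting is not stated. Mean ENOSF1 levels were 22.7, 25.1, 21.2 and 21.4 CPM in scramble, siRNA #1, siRNA #2 and siRNA #3. TK1, the salvage kinase, was 45.5, 45.7 and 49.3 CPM in the scramble libraries, 48.4, 45.9 and 42 with siRNA #1, 51.9, 51.7 and 48.1 with siRNA #2 and 44.3, 48.6 and 49.8 with siRNA #3, with no call against scramble.

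The G1/S regulators were divided with siRNA #1. E2F1 (chr20:33675477-33686385), an activating E2F, measured 34, 34 and 37.1 CPM in the scramble libraries, 48.9, 45.3 and 43.8 with siRNA #1, 33.8, 36 and 33.5 with siRNA #2 and 38.4, 38.4 and 43.8 with siRNA #3. All 3 siRNA #1 libraries were above scramble (0.39 ± 0.06, edgeR FDR = 0.0002), and siRNA #2 libraries overlapped it (-0.02 ± 0.06, edgeR FDR = 0.819). With siRNA #3 the change was 0.20 ± 0.06 (edgeR FDR = 0.0306), a call lost with upper quartile scaling, with only the groups compared, or without siRNA #3 replicate 3 or scramble replicate 1 or 2 (FDR between 0.055 and 0.12).

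CDK2, the partner kinase of cyclin E, measured 137, 142 and 141 CPM in the scramble libraries, 113, 112 and 103 with siRNA #1, 147, 149.9 and 150.4 with siRNA #2 and 138, 140.4 and 144 with siRNA #3. It fell with siRNA #1 (-0.36 ± 0.04, edgeR FDR = 8e-06). CCNE2, a cyclin E, measured 25.5, 26.3 and 25.2 CPM in the scramble libraries, 21.9, 21.4 and 18.8 with siRNA #1, 26.5, 27.9 and 27.9 with siRNA #2 and 26.9, 26.6 and 26.2 with siRNA #3 and also fell with siRNA #1 (-0.31 ± 0.05, edgeR FDR = 0.00044), with 37.0% of its exonic bases overlapping INTS8 on the other strand. INTS8 was the more abundant and moved in parallel, with means of 96.3, 80.7, 111 and 112 CPM in scramble, siRNA #1, siRNA #2 and siRNA #3, and whether reads were shared was not tested. The other cyclin E gene, CCNE1, measured 19.9, 20.1 and 20.8 CPM in the scramble libraries, 22.4, 21.8 and 19.1 with siRNA #1, 18.7, 17.9 and 18 with siRNA #2 and 17.7, 19.2 and 18.3 with siRNA #3. Its log2 fold changes were 0.06 ± 0.06 (edgeR FDR = 0.461), -0.16 ± 0.06 (edgeR FDR = 0.0718) and -0.14 ± 0.06 (edgeR FDR = 0.0949), none of them called, though the latter 2 were called lower with upper quartile scaling (FDR = 0.012 and 0.014) and with the filter at a mean of 1 CPM (0.022 and 0.018), and also without siRNA #1 replicate 3 (0.035 and 0.033). The change with siRNA #2 was called as well when only the groups compared were fitted (0.044).

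Behind the fork, UHRF1 differed in sign between siRNAs. UHRF1 (chr19:4903080-4962154), which reads hemimethylated DNA after replication, measured 104, 109 and 115 CPM in the scramble libraries, 145, 138 and 133 with siRNA #1, 109, 98.1 and 104 with siRNA #2 and 99.6, 96.3 and 98.8 with siRNA #3. It rose with siRNA #1 (0.34 ± 0.05, edgeR FDR = 0.0001) and was lower with siRNA #3 (-0.16 ± 0.05, edgeR FDR = 0.0287). The latter call was lost with RLE scaling or without any 1 of the siRNA #3 replicates or scramble replicate 2 or 3 (FDR between 0.053 and 0.13). CHAF1A and CHAF1B, subunits of the histone chaperone CAF-1, were not called with siRNA #1 and were called higher with siRNA #2, CHAF1A also with siRNA #3.

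Fork protection proteins TIMELESS and TIPIN act as a pair, and their RNAs behaved differently. TIPIN (chr15:66336191-66386746) measured 40.2, 39.2 and 38.2 CPM in the scramble libraries, 58.4, 56.6 and 51.4 with siRNA #1, 49.8, 48.1 and 49.7 with siRNA #2 and 52, 50.1 and 51.5 with siRNA #3. It was above scramble in all 9 siRNA libraries, by 0.50 ± 0.05 (edgeR FDR = 2e-06), 0.33 ± 0.05 (edgeR FDR = 0.00022) and 0.39 ± 0.05 (edgeR FDR = 5.1e-05), and the change with siRNA #1 was the largest rise of any member with that siRNA. The pseudogene RPL9P25, which overlaps 21.1% of its exonic bases, was at 0 in all groups. TIMELESS measured 149.9, 145 and 148 CPM in the scramble libraries, 149.6, 155 and 145 with siRNA #1, 152, 160.0 and 151 with siRNA #2 and 137, 138 and 137 with siRNA #3. Its log2 fold changes against scramble were 0.02 ± 0.04 (edgeR FDR = 0.687), 0.06 ± 0.04 (edgeR FDR = 0.225) and -0.10 ± 0.04 (edgeR FDR = 0.0538), with no call. With siRNA #3 it was called lower under upper quartile scaling (FDR = 0.0026), with the filter at a mean of 1 CPM (0.0075) and without siRNA #1 replicate 3 (0.035).

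**Figure D5:**
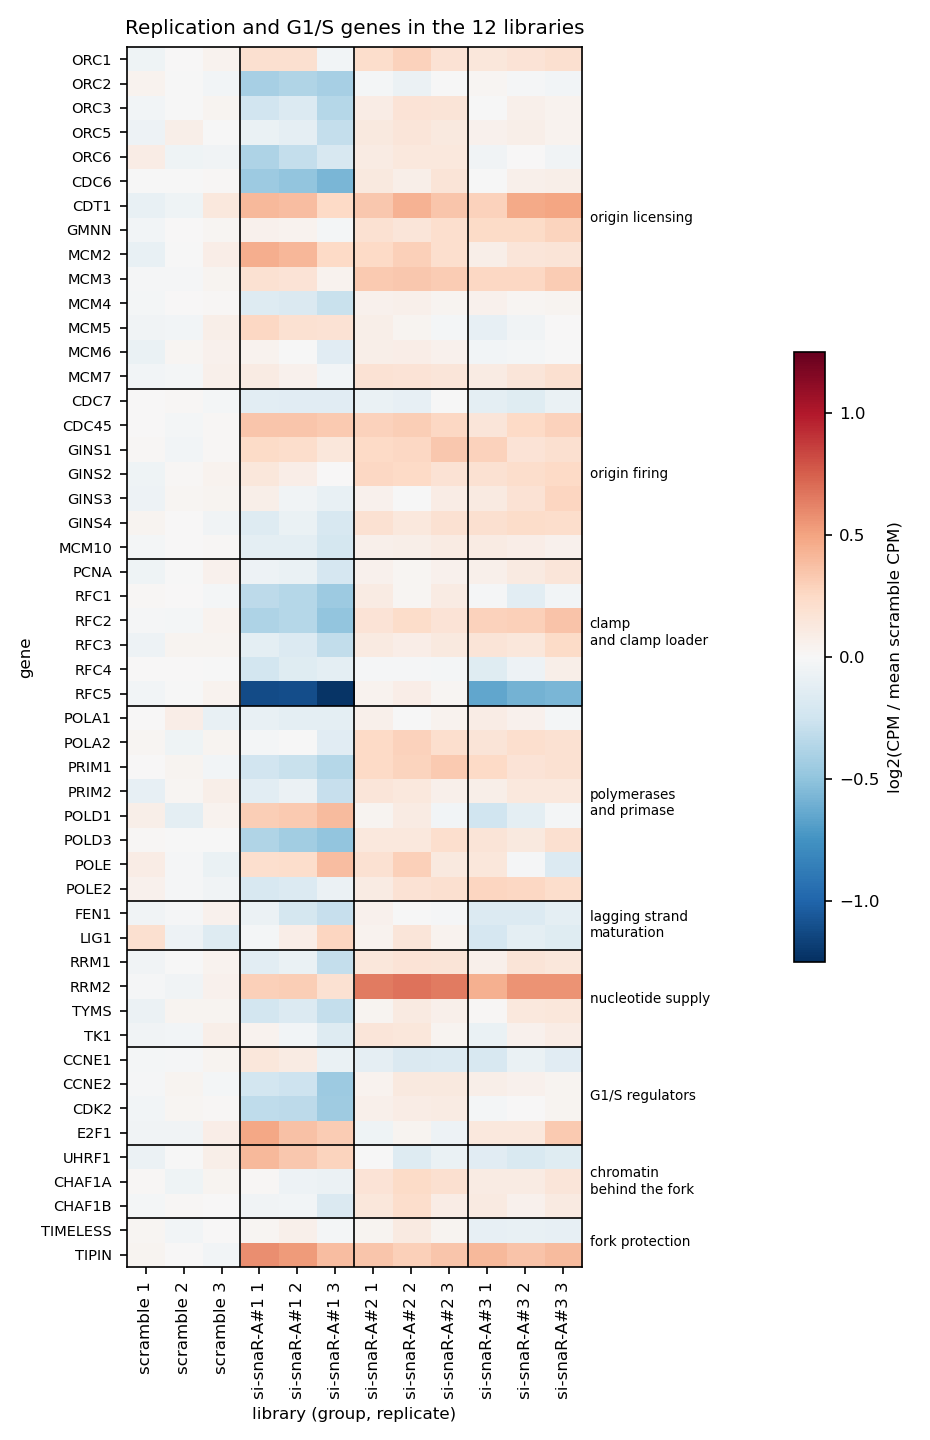
Log2 ratio of CPM in each of the 12 libraries to the mean of the scramble libraries, for the 50 genes in order of role (red higher, blue lower). The darkest cells are RFC5 with siRNA #1, at 52.2 to 56.5 CPM against 119 to 125 in scramble, and CDT1, CDC45, RRM2 and TIPIN are red in all 9 siRNA libraries.

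Compared side by side across the siRNAs, 6 members were called higher with all 3 (RRM2, TIPIN, CDT1, CDC45, MCM3 and GINS1) and 0 were called lower with all 3. Over all genes tested, 5.16% were called higher and 2.84% lower with all 3, and among the 8275 highly expressed genes 11.4% and 3.15%. The 3 comparisons share their scramble libraries, and the 3 siRNAs overlap in sequence. In the mean of the 3 siRNAs the log2 fold changes of the 6 were 0.48 ± 0.04 (edgeR FDR = 1.5e-06) for RRM2, 0.40 ± 0.04 (edgeR FDR = 6.7e-06) for TIPIN, 0.38 ± 0.06 (edgeR FDR = 0.00026) for CDT1, 0.29 ± 0.03 (edgeR FDR = 2.1e-05) for CDC45, 0.25 ± 0.03 (edgeR FDR = 0.00016) for MCM3 and 0.23 ± 0.04 (edgeR FDR = 0.00026) for GINS1. These same 6 were the only members whose 9 siRNA libraries were all above the 3 scramble libraries. The same held for 6.62% of all genes and 13.7% of the highly expressed ones. Both counts, 6 of 50, were near the shares of the highly expressed genes. The 6 were picked by their calls in these libraries, so their values in the mean and the lack of overlap are no separate evidence. For MCM3 the gap was narrow, with siRNA #1 replicate 3 at 299.7 CPM and scramble replicate 3 at 299.2 CPM.

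Calls of opposite sign were found for 10 members (20%), beside 8.41% of all genes and 15.5% of the highly expressed ones. In 9 of them siRNA #1 was the lower one (RFC2, CDC6, POLD3, PRIM1, POLE2, ORC3, RFC3, GINS4 and RRM1), and in UHRF1 it was the higher one. These pairs of calls were followed by a direct test between siRNAs.

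Between siRNA #1 and siRNA #2, 38 of 50 members were called, 6 of them higher with siRNA #1 and 32 lower. Beside this stood 46.7% of all genes (23.7% higher, 23% lower) and 65.1% of the highly expressed ones (24.6% higher, 40.5% lower). Between siRNA #1 and siRNA #3, 40 of 50 were called, 10 higher and 30 lower, beside 48.6% of all genes (23.8% higher, 24.8% lower) and 67.3% of the highly expressed ones (23.7% higher, 43.6% lower). Between siRNA #2 and siRNA #3 the count was 4 of 50 (3 higher with siRNA #2, 1 lower), beside 15.6% (6.52% higher, 9.03% lower) and 26.3% (11.2% higher, 15.1% lower). It was 11 without siRNA #1 replicate 3, 7 without scramble replicate 3, 2 without siRNA #2 replicate 1 or 3, and 10 when only the groups compared were fitted. The median log2 difference of the members was -0.20, -0.19 and 0.05 in these 3 comparisons, and that of the highly expressed genes was -0.07, -0.09 and -0.02.

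The direct differences between siRNA #1 and siRNA #2 were -1.20 ± 0.04 (edgeR FDR = 7.7e-10) for RFC5, -0.63 ± 0.04 (edgeR FDR = 7.1e-08) for CDC6, -0.60 ± 0.04 (edgeR FDR = 1.8e-07) for RFC2, -0.59 ± 0.04 (edgeR FDR = 9.8e-08) for POLD3 and -0.57 ± 0.04 (edgeR FDR = 1.8e-07) for PRIM1. Those between siRNA #1 and siRNA #3 were -0.72 ± 0.04 (edgeR FDR = 2.8e-08) for RFC2, -0.59 ± 0.04 (edgeR FDR = 8.2e-08) for POLD3, -0.55 ± 0.04 (edgeR FDR = 1.7e-07) for CDC6, -0.55 ± 0.04 (edgeR FDR = 2.4e-07) for RFC5 and 0.50 ± 0.05 (edgeR FDR = 3.3e-06) for UHRF1. RFC5 was thus below both other siRNAs with siRNA #1. The 4 members called between siRNA #2 and siRNA #3 were RFC5 (0.65 ± 0.04, edgeR FDR = 9.2e-07), TIMELESS (0.17 ± 0.04, edgeR FDR = 0.00829), FEN1 (0.16 ± 0.05, edgeR FDR = 0.0493) and E2F1 (-0.22 ± 0.06, edgeR FDR = 0.0295). The call for E2F1 was lost in 5 of 20 other settings (FDR between 0.051 and 0.11), among them fits without siRNA #2 replicate 1 or 3, siRNA #3 replicate 3 or siRNA #1 replicate 2. That for FEN1 was lost in 11 of 20 (0.052 to 0.17), among them RLE scaling, no filter, and fits without any 1 library of those 2 groups or scramble replicate 1 or 2.

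Other genes of the same pathways were counted from a further list. Of 42 further replication genes, 29 were called with siRNA #1 (8 higher, 21 lower), 16 with siRNA #2 (10 higher, 6 lower) and 9 with siRNA #3 (8 higher, 1 lower), with medians of -0.16, 0.07 and 0.07. In percent these are 69.0%, 38.1% and 21.4%, beside 45.2%, 25.8% and 29.4% of all genes tested. Among the highly expressed genes the shares were 64.3%, 41.3% and 48.5%, but none of the further lists was limited to that level. The share with siRNA #3 was below both backgrounds. In the mean of the 3 siRNAs, 22 of the 42 (52.4%) were called, 8 higher and 14 lower. This stood beside 32.2% of all genes (15.6% higher, 16.6% lower) and 50.1% of the highly expressed ones (30.1% higher, 20.1% lower). The calls of the 50 members in the mean were 14 higher and 6 lower. The largest rises in the mean were those of TONSL (0.41 ± 0.05, edgeR FDR = 2.8e-05), which acts at damaged forks, and the histone chaperone NASP (0.31 ± 0.04, edgeR FDR = 5.8e-05). The largest falls were those of RNASEH2B (-0.35 ± 0.04, edgeR FDR = 1.4e-05), a subunit of RNase H2, and CLSPN (-0.33 ± 0.05, edgeR FDR = 0.00034), the claspin checkpoint adaptor. With siRNA #1 alone, the changes of RNASEH2B and CLSPN were -0.76 ± 0.05 (edgeR FDR = 5e-08) and -0.72 ± 0.07 (edgeR FDR = 1.7e-06). Neither RNASEH2B nor CLSPN was called with siRNA #3, and NASP was not called with siRNA #2.

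Of 31 further G1/S and E2F-RB genes, 18, 14 and 14 were called with siRNA #1, siRNA #2 and siRNA #3 (6, 8 and 10 higher). These are 58.1%, 45.2% and 45.2%, beside 45.2%, 25.8% and 29.4% of all genes and 64.3%, 41.3% and 48.5% of the highly expressed ones. In the mean, 15 (48.4%) were called (7 higher, 8 lower), beside 32.2% of all genes and 50.1% of the highly expressed ones. RBL1, which encodes the RB-related protein p107, had the largest rise in the mean (0.35 ± 0.04, edgeR FDR = 7.4e-05), followed by CDK6 (0.31 ± 0.07, edgeR FDR = 0.00462), a cyclin D kinase. RBL1 was not called with siRNA #1 and CDK6 was not called with siRNA #2. CCND2, a cyclin D, had the largest fall (-0.34 ± 0.04, edgeR FDR = 1.3e-05) and CDKN1B, which encodes the CDK inhibitor p27, the next (-0.21 ± 0.03, edgeR FDR = 0.00043). The fall of CDKN1B was -0.59 ± 0.04 (edgeR FDR = 2.2e-07) with siRNA #1 and 0.00 ± 0.04 (edgeR FDR = 0.955) and -0.03 ± 0.04 (edgeR FDR = 0.593) with the other siRNAs.

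For comparison, 23 of 32 mitosis genes were called with siRNA #1 (12 higher, 11 lower), 13 with siRNA #2 (9 higher, 4 lower) and 16 with siRNA #3 (14 higher, 2 lower). These are 71.9%, 40.6% and 50%, beside 45.2%, 25.8% and 29.4% of all genes and 64.3%, 41.3% and 48.5% of the highly expressed ones. The mean of the 3 siRNAs had 13 calls (8 higher, 5 lower), which is 40.6%, beside 32.2% of all genes and 50.1% of the highly expressed ones. Between siRNA #2 and siRNA #3, 12 of 32 (37.5%) were called (1 higher, 11 lower), beside 15.6% of all genes and 26.3% of the highly expressed ones. In the mean, CENPF (0.41 ± 0.06, edgeR FDR = 0.00011) and UBE2C (0.26 ± 0.04, edgeR FDR = 0.00011) had the largest rises and NEK2 (-0.27 ± 0.04, edgeR FDR = 8.6e-05) and FOXM1 (-0.17 ± 0.03, edgeR FDR = 0.00108) the largest falls of this list. CENPF and UBE2C were called higher with each siRNA. NEK2 was called lower with siRNA #1 (-0.98 to -0.90 over 20 other settings) and higher with siRNA #3 (0.13 to 0.21), and was not called with siRNA #2. FOXM1 was called lower with siRNA #1 and siRNA #2 but not called with siRNA #3.

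Counts of some members carry an added uncertainty. Exons of 23 of the 50 genes overlap another gene in the table on either strand, and for 5 of them, TYMS, CCNE2, MCM2, TIPIN and GINS4, at least 20% of exonic bases are shared with 1 other gene. The lncRNA genes over MCM2 and GINS4 had means of 0.243 CPM or less in every group.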

How the data were processed

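Poly(A)+ RNA of HEK293T cells was sequenced after rRNA depletion with a stranded kit. The authors trimmed the reads with Trim Galore, quantified transcripts with Salmon and deposited estimated counts per Ensembl gene, with hg38 named in the submitters' processing notes. How transcripts were summed to genes, whether strand was used, and the release of the transcriptome are not given in the sources used here. Replicates were handled on 1 day with control and treated cells in parallel. None of the 351421 positive values was whole (0), and 77.8% of those from 0.5 to 1.5 lay within 0.05 of 1, so they may have been rescaled by transcript length. They were rounded to whole counts before each test.

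All 12 libraries entered 1 fit in edgeR 4.0.16 (R 4.3.3) with TMM scaling, filterByExpr and the quasi-likelihood test in place of the exact test that the study names. The Benjamini-Hochberg adjustment ran over 21999 genes, which held at least 99.98% of each library's counts. Calls are at an adjusted p (FDR) under 0.05. The SE of a log2 fold change is its size over the square root of F. CPM used TMM library sizes. No row lacked a gene name. Symbols and gene coordinates came from GENCODE release 44 (GRCh38), and promoters from RefSeq (GRCh38.p14). Alternatives were RLE and upper quartile scaling, no filter, a filter at a mean of 1 CPM, DESeq2 1.42.0, edgeR's exact test, fits of only the groups compared, a replicate block and leaving out each library. The scripts were tested on simulated counts.

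The members, role groups and further lists (43 replication, 31 G1/S and E2F-RB and 32 mitosis symbols) were chosen with earlier results of these data known. Genes given with single values were a set of 20 measured genes central to licensing, the fork, nucleotide supply and G1/S control, those called in 1 direction with all 3 siRNAs (up to 6), the 3 largest rises and 3 largest falls per siRNA among calls, up to 5 with calls of opposite sign, and per further list, the 2 called genes that rose most and the 2 that fell most in the mean. This gave 27 members and 12 other genes. Other members appear by name with their calls, or with log2 values for the ORC genes. ASF1B of the further replication list was not analysed here.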

Additional observations from a re-analysis of the deposited data

Results flagged for a closer look

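A direct test between siRNAs singled out members whose change differed by siRNA, at an edgeR adjusted p under 0.05. It called 38 members between siRNA #1 and siRNA #2, 40 between siRNA #1 and siRNA #3 and 4 between siRNA #2 and siRNA #3, beside 46.7%, 48.6% and 15.6% of all genes. Those with a difference of at least 0.5 on the log2 scale, a limit set after the data were seen, are given singly.

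Between siRNA #1 and siRNA #2 these were RFC5 (-1.2), CDC6 (-0.63), RFC2 (-0.6), POLD3 (-0.59) and PRIM1 (-0.57), each lower with siRNA #1 in 3 of 3 libraries against 3 of 3. Between siRNA #1 and siRNA #3 they were RFC2 (-0.72), POLD3 (-0.59), CDC6 (-0.55) and RFC5 (-0.55), again with no overlap between the groups. Between siRNA #2 and siRNA #3, RFC5 differed by 0.65 and was higher in all siRNA #2 libraries. In these 3 comparisons the groups did not overlap for 12320, 11946 and 7769 of the 21999 genes tested. Among the 8275 highly expressed genes the counts were 5950, 5732 and 4151. The members given singly were picked by call and size, so a lack of overlap follows largely from that choice. Groups of 3 are too small for a check of single outlying libraries.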

How the results depend on the processing

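Of 8 counts of members called, 6 stayed within 1.5 times their value under every alternative. The count for the mean of the 3 siRNAs was 20 and between 12 and 21 with 1 library left out. The count between siRNA #2 and siRNA #3 was 4, against 7 with upper quartile scaling, 11 with a filter at a mean of 1 CPM, 10 with only the groups compared, with edgeR's exact test and with DESeq2, and between 2 and 11 with 1 library left out. Leaving out 1 library gave 31 to 35 calls for siRNA #1, 16 to 30 for siRNA #2, 16 to 28 for siRNA #3, 35 to 39 and 36 to 41 between siRNA #1 and the other siRNAs, and 5 to 7 members higher with all 3. Among genes given with single values, 100 calls against scramble were tried under up to 20 alternatives, and 15 were lost under at least 1 of them. No value of these genes that was called, in either fit, changed sign.

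With the replicate number as a block the counts were 35, 20 and 21 for siRNA #1, siRNA #2 and siRNA #3, 18 in the mean, and 37, 40 and 2 between siRNAs. Among genes given with single values, those not called with the block were CDC6 with siRNA #2 (FDR = 0.065), FEN1 with siRNA #3 (0.057), CDK2 in the mean (0.069), MCM7 between siRNA #1 and siRNA #2 (0.064), and E2F1 (0.051) and FEN1 (0.072) between siRNA #2 and siRNA #3. No deviation shared by number was detected. Deviations of libraries with the same number correlated between -0.0657 and 0.0847 (18 pairs), and those with different numbers between -0.115 and 0.107 (36 pairs). Of 12 libraries, 3 correlated best with a library of their own number. These values cannot show whether libraries of the same number were handled as a set. In depth, the lowest library total was 120.4 M counts and the lowest mean level of a member 19.5 CPM. Pooled over genes, replicates differed by more than counting error, at a chi-square per degree of freedom of 13.0 to 63.1. For single members of low level, counting error was not set apart from the spread between replicates.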
